A study of Mus musculus with 27 samples.

Results

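Cell cycle and DNA replication genes were followed across primary mouse cells given a plant sterol, a synthetic compound or vehicle. The set held 38 genes, taken by name from the 55487 gene identifiers of the deposited count table, and all 38 were found there. It was divided by role into 14 replication genes (9 of them encoding MCM, GINS and ribonucleotide reductase proteins), 2 cyclins of the G1 to S transition and 22 genes of mitosis. The choice of genes used no measured value of the comparison, but it was made with earlier results of these data known. The cells were microglia, macrophages grown from bone marrow (BMDM) and hepatocytes, each treated for 24 h, with 3 libraries in each of 9 groups. Each cell type received ethanol as vehicle, 10 µM 24(S)-saringosterol, a sterol of algae and plants, or 1 µM of a compound that the labels spell GW3596, GW3964 and GW3965, shortened to GW below. The last of these names belongs to a synthetic ligand that activates liver X receptors (LXR), the nuclear receptors for oxidised sterols. Because the doses differ, no comparison of the compounds here is at a matched dose. The labels give no strain, genotype, sex or age for the animals.

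Per the labels, microglia were shaken off mixed glia, BMDM were grown for 6 days in medium with M-CSF, a macrophage growth factor, and hepatocytes were kept on plates coated with collagen. Microglia and BMDM were treated in serum-free DMEM/F12 medium that held M-CSF, insulin, transferrin, selenite and albumin. Hepatocytes were treated in Williams' E medium without these additions, so medium and cell type cannot be told apart where hepatocytes are compared with the other cells. Libraries held 30295862 to 41040268 counts in genes, and the floor set by a count of 0 (3 counts, counting error only) was 0.073 to 0.099 CPM (counts per 1000000). Marker genes fixed for each cell type were summed as a check of the labels. Macrophage markers summed in microglia to 33742 to 38513 CPM, in BMDM to 20172 to 27980.4 CPM and in hepatocytes to 331 to 378 CPM. Hepatocyte markers summed to 8984 to 9749.6 CPM in hepatocytes and to 1.55 CPM or less in every other library. Of the 6 microglia markers, Siglech had at most 3 counts summed over each microglia group, and the other microglia markers were present. The 6 summed to 820 to 1020 CPM in microglia, 222 to 273 CPM in BMDM and 94.7 to 106 CPM in hepatocytes. In BMDM only Sall1 had at most 3 counts, with vehicle and saringosterol, so presence alone does not separate microglia from BMDM. Whether the 3 libraries of a group are separate animals or cultures is not stated, so p-values measure only the spread between these libraries.

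A cell that divides first copies its DNA and then segregates it. MCM proteins form the ring-shaped helicase that is loaded on replication origins with the help of Cdc6 and Cdt1 and is switched on with GINS and Cdc45. Ribonucleotide reductase and thymidylate synthase supply the DNA precursors, Pcna is the sliding clamp that holds the polymerases on DNA, and Uhrf1 carries DNA methylation over to the new strand. The E-type cyclins drive entry into S phase. Later, cyclin B with Cdk1, the Aurora and Polo kinases, kinesin motors, centromere proteins and the anaphase-promoting complex run mitosis. Replication genes are textbook targets of E2F factors. Many mitotic genes are bound by the MuvB complex with B-Myb and FoxM1 through the cell cycle genes homology region (CHR), often near CCAAT boxes. Macrophages of bone marrow and microglia divide in culture with M-CSF, whereas adult hepatocytes are mostly quiescent.

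The promoters of the classes differ in the letters they hold, and 6 are shown as examples. Most of the 6 hold the letters searched for, and the counts for each class follow the sequences. Sequences are from RefSeq on GRCm38.p6, and 31 of the 38 members had a window there. The stretches printed are the 170 bases before the RefSeq start, which can differ from the start of the counted gene. Capitals mark matches, on either strand, to E2F-type letters (TTTCCCGC, TTTCGCGC, TTTGCCGC or TTTGGCGC) or to CHR-type letters (TTTGAA or TTCGAA).
Mcm5, chr8:75109339-75109508, + strand: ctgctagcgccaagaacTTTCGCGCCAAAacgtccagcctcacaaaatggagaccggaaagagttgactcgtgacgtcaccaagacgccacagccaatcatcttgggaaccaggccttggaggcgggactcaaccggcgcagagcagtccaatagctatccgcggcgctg
Mcm6, chr1:128359706-128359875, - strand: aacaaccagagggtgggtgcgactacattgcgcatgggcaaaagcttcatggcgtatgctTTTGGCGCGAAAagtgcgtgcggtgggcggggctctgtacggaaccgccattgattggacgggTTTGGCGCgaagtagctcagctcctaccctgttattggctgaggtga
Pcna, chr2:132253181-132253350, - strand: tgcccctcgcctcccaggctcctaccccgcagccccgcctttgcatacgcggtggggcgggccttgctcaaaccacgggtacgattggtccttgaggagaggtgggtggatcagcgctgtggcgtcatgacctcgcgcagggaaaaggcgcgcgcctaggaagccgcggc
Cdk1, chr10:69352913-69353082, - strand: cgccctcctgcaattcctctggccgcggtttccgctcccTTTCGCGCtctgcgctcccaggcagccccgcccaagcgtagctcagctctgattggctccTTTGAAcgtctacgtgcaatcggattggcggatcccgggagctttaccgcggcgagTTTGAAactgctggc
Top2a, chr11:99024190-99024359, - strand: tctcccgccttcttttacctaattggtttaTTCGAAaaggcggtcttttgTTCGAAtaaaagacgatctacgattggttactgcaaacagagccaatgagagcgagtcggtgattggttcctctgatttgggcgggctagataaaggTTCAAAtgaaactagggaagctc
Cdc20, chr4:118437344-118437513, - strand: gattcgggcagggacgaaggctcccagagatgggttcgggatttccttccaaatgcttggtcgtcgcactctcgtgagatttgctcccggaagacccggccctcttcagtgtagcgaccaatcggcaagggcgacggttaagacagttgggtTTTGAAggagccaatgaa
In the 250 bases before the start, E2F-type letters stood in 5 of 12 replication promoters (Mcm5, Mcm6, Mcm7, Uhrf1 and Cdc6) and in 1 of 18 mitotic promoters (Cdk1), against 1.86% of 32851 windows of that length at RefSeq starts. CHR-type letters stood in 2 of 12 replication promoters and 8 of 18 mitotic promoters, against 17.1% of all windows. CCAAT on either strand stood in 9 of 12 replication and 16 of 18 mitotic promoters, against 33.8% of all windows. A member was counted if any of its RefSeq windows matched, whereas the shares of all windows count each window singly. Members with more than 1 window therefore had more chances to match. Pcna had no E2F-type or CHR-type match in the 250 bases before its RefSeq start. The counted Pcna gene spans 132249162 to 132253314 on the same strand, so much of the printed stretch lies within it. The bases before the start of the counted gene were searched only in part. A match describes the letters only and is not a bound site.

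Levels in vehicle-treated cells are described first. Levels of different genes are compared here as TPM (transcripts per 1000000), which are scaled for gene length. Pcna was the most abundant member in both macrophage types, at 170.1 ± 5.79 TPM (SD, n = 3) in microglia and 273 ± 12.2 TPM in BMDM. In hepatocytes Mcm6 came first, at 134 ± 4.2 TPM, followed by Pcna at 29.8 ± 2.62 TPM and Mcm7 at 20.3 ± 1.58 TPM. In microglia Cdt1 and Mcm6 followed Pcna at 45.5 ± 0.844 and 44.3 ± 2.23 TPM, which did not differ beyond their spread. In BMDM the second place belonged to a mitotic gene, cyclin B2 (Ccnb2), at 44.1 ± 2.04 TPM, ahead of Mcm6 at 36.2 ± 2.88 TPM. The lowest members were Cdc6 and Cenpf, at 1.87 ± 0.334 and 1.01 ± 0.208 TPM in microglia. In hepatocytes they were Mki67 and Cenpf, at 0.0171 and 0.0169 TPM.

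**Figure D1:**
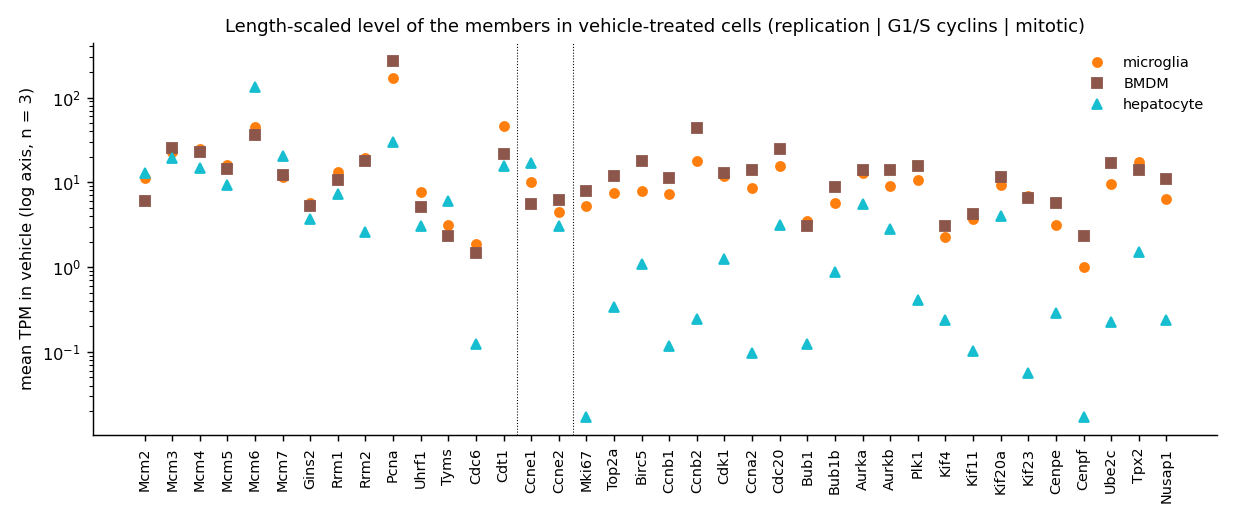
Mean TPM of each of the 38 members in vehicle-treated microglia, BMDM and hepatocytes (n = 3 each) on a log axis, with dotted lines between replication genes, G1/S cyclins and mitotic genes. Hepatocyte points lie above both macrophage points for Mcm2, Mcm6, Mcm7, Tyms and Ccne1, with Mcm6 at 134 TPM, and below both for the other members, down to 0.0169 TPM for Cenpf.

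Single genes are given from here on as CPM on library sizes scaled by the trimmed mean of M-values (TMM) within each cell type. Changes are given on the log2 scale with the standard error (SE). Log2 differences between cell types come from 1 fit of all 27 libraries, which had its own TMM factors (0.87 to 1.26). They therefore differ from those read off the printed CPM of 2 cell types. A gene was taken as risen or fallen where edgeR's quasi-likelihood test gave a Benjamini-Hochberg adjusted p under 0.05 over all genes tested. In the vehicle groups every mitotic gene was higher in microglia and in BMDM than in hepatocytes (22 of 22 in both comparisons). Over all members 33 were higher in microglia than in hepatocytes and 4 were lower, where 37.3% of all 18979 genes were higher and 36.2% lower. The split for BMDM against hepatocytes was 33 higher and 5 lower, where 37.7% of all genes were higher and 37.5% lower. Mki67, which encodes the proliferation antigen Ki-67, had 2, 0 and 5 counts in the hepatocyte vehicle libraries, and stood at 18.6, 17.3 and 17.4 CPM in microglia and at 26.3, 30.9 and 27.4 CPM in BMDM. Ccna2, which encodes cyclin A2, had 3, 3 and 10 counts in the hepatocyte vehicle libraries and 12.3, 9.98 and 12.7 CPM in microglia. Kif23, a motor of the central spindle, had 5, 4 and 9 counts in hepatocytes and 20.1, 18.4 and 16.7 CPM in microglia. These hepatocyte counts lie at or near the floor of 3 counts, so the fitted log2 differences (8.50 ± 0.28, 6.75 ± 0.33 and 7.25 ± 0.22 in turn) depend on the prior count.

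Among the replication genes, Mcm6, Mcm7 and Tyms were lower in both macrophage types than in hepatocytes. Mcm6, a subunit of the helicase ring, stood at 218, 223 and 228 CPM in hepatocytes, at 69.2, 65.7 and 73.1 CPM in microglia and at 59.1, 55.6 and 65.4 CPM in BMDM. All hepatocyte libraries were above all macrophage libraries in these CPM. In the fit of all 27 libraries the log2 difference was -1.28 ± 0.08 for microglia and -1.47 ± 0.08 for BMDM (adjusted p = 2.1e-16 and 6.2e-18, edgeR). Mcm7 was lower than in hepatocytes by log2 values of -0.51 ± 0.08 in microglia and -0.32 ± 0.08 in BMDM, and Tyms, the thymidylate synthase, by -0.64 ± 0.14 and -0.96 ± 0.14. Ccne1 was lower as well, by -0.41 ± 0.13 and -1.18 ± 0.13. Mcm2 was lower in BMDM than in hepatocytes (-0.66 ± 0.11), and in microglia its log2 difference from hepatocytes was 0.12 ± 0.10 (adjusted p = 0.31). The remaining MCM genes Mcm3, Mcm4 and Mcm5 were higher in both macrophage types, by 0.57 to 1.13 on the log2 scale. The precursor enzyme Rrm2 was at 2.31, 2.96 and 2.36 CPM in hepatocytes against 18.8, 17 and 17.9 CPM in microglia.

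Between microglia and BMDM, 16 of 22 mitotic genes were lower in microglia and 0 were higher. Among replication genes 5 were higher in microglia (Mcm2, Mcm6, Rrm1, Uhrf1 and Cdt1) and 2 lower (Mcm3 and Pcna). In all 6 members were higher and 19 lower, where 24.6% of all genes were higher and 22% lower. Ccnb2 stood at 8.64, 9.11 and 10.0 CPM in microglia and at 24.7, 24.4 and 22.8 CPM in BMDM, with no overlap. Cenpf, a kinetochore protein, stood at 6.41, 4.51 and 4.75 against 15, 10.9 and 12.5 CPM. The licensing factor Cdt1 showed the reverse order, at 47.2, 47.2 and 49.3 CPM in microglia and 21.6, 25.3 and 24.3 CPM in BMDM (log2 difference 0.99 ± 0.08, adjusted p = 1.2e-12, edgeR).

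In microglia, GW lowered nearly the whole set. Of the 38 members 35 fell and 1 rose, where 15.2% of all 16065 genes tested fell and 13.4% rose. All 22 mitotic genes fell, with a median log2 change of -1.32, and 11 of 14 replication genes fell, with a median of -0.55; the median over all genes tested was -0.005. Both E-type cyclins fell, Ccne1 by 0.53 ± 0.11 and Ccne2 by 0.59 ± 0.18 on the log2 scale. The Ccne2 call was lost without vehicle replicate 1, GW replicate 2 or GW replicate 3. In such bulk libraries fewer dividing cells and less of each RNA per dividing cell cannot be told apart.

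The members with the largest changes were Plk1, Ccnb2 and Bub1b. Plk1, the Polo-like kinase of mitotic entry, stood at 6.96, 7.93 and 8.66 CPM with vehicle and at 2.71, 1.83 and 2.82 CPM with GW (log2 change -1.67 ± 0.16, adjusted p = 4.5e-10). Ccnb2 stood at 8.64, 9.11 and 10.0 CPM with vehicle and at 3.13, 2.75 and 3.54 CPM with GW (-1.55 ± 0.13). Bub1b, a kinase of the spindle checkpoint, stood at 8.45, 8.26 and 7.47 CPM with vehicle and at 3.13, 3.16 and 2.18 CPM with GW (-1.52 ± 0.14). For these 3 genes the groups did not overlap, and the highest GW library was under the lowest vehicle library. Aurka, the Aurora kinase of the spindle poles, fell from 11.2, 9.80 and 11.6 CPM to 3.96, 4.0 and 4.02 CPM, and the library values with GW were nearly identical. Mki67 fell from 18.6, 17.3 and 17.4 CPM to 7.98, 7.85 and 8.83 CPM (-1.11 ± 0.09). The kinesins Kif4, Kif11, Kif20a and Kif23 fell by 1.26 to 1.39 on the log2 scale, and the centromere genes Cenpe and Cenpf by 1.47 ± 0.15 and 1.28 ± 0.18.

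Cdk1, the kinase partner of cyclin B, changed least of the mitotic class. It stood at 19, 19.9 and 20.7 CPM with vehicle and at 15.5, 17.2 and 17.3 CPM with GW, which did not overlap (log2 change -0.25 ± 0.08, adjusted p = 0.016, edgeR). Its call was lost without vehicle replicate 3 or without GW replicate 1. Aurkb and Top2a came next, at -0.76 ± 0.12 and -0.86 ± 0.09, and the other 19 mitotic genes fell by 1.02 to 1.67.

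Replication genes fell by amounts that ranged from none detected to those of the mitotic genes. Uhrf1, Rrm2, Cdc6 and Mcm5 fell most, by 1.30 ± 0.13, 1.20 ± 0.10, 1.15 ± 0.22 and 1.06 ± 0.08 on the log2 scale. Rrm2 stood at 18.8, 17 and 17.9 CPM with vehicle and at 7.55, 6.95 and 8.78 CPM with GW. Mcm5 stood at 20, 23.2 and 21.8 CPM with vehicle and at 10.8, 9.76 and 10.6 CPM with GW. The groups of both genes were far apart. Mcm6 fell less, from 69.2, 65.7 and 73.1 CPM to 47.2, 41.3 and 50.2 CPM (-0.58 ± 0.06). The 6 subunits of the helicase ring took values from -1.06 for Mcm5 to -0.12 ± 0.07 for Mcm2, which did not pass the test (adjusted p = 0.27, edgeR). Gins2 did not pass either, at -0.20 ± 0.13.

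Pcna went the other way. It stood at 130.4, 139.5 and 141.1 CPM with vehicle and at 177.8, 194 and 181.7 CPM with GW, and every GW library was above every vehicle library. The log2 change was 0.43 ± 0.04 with an adjusted p of 2.7e-09 (edgeR). Pcna rose in each alternative fit and with each library left out.

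**Figure D2:**
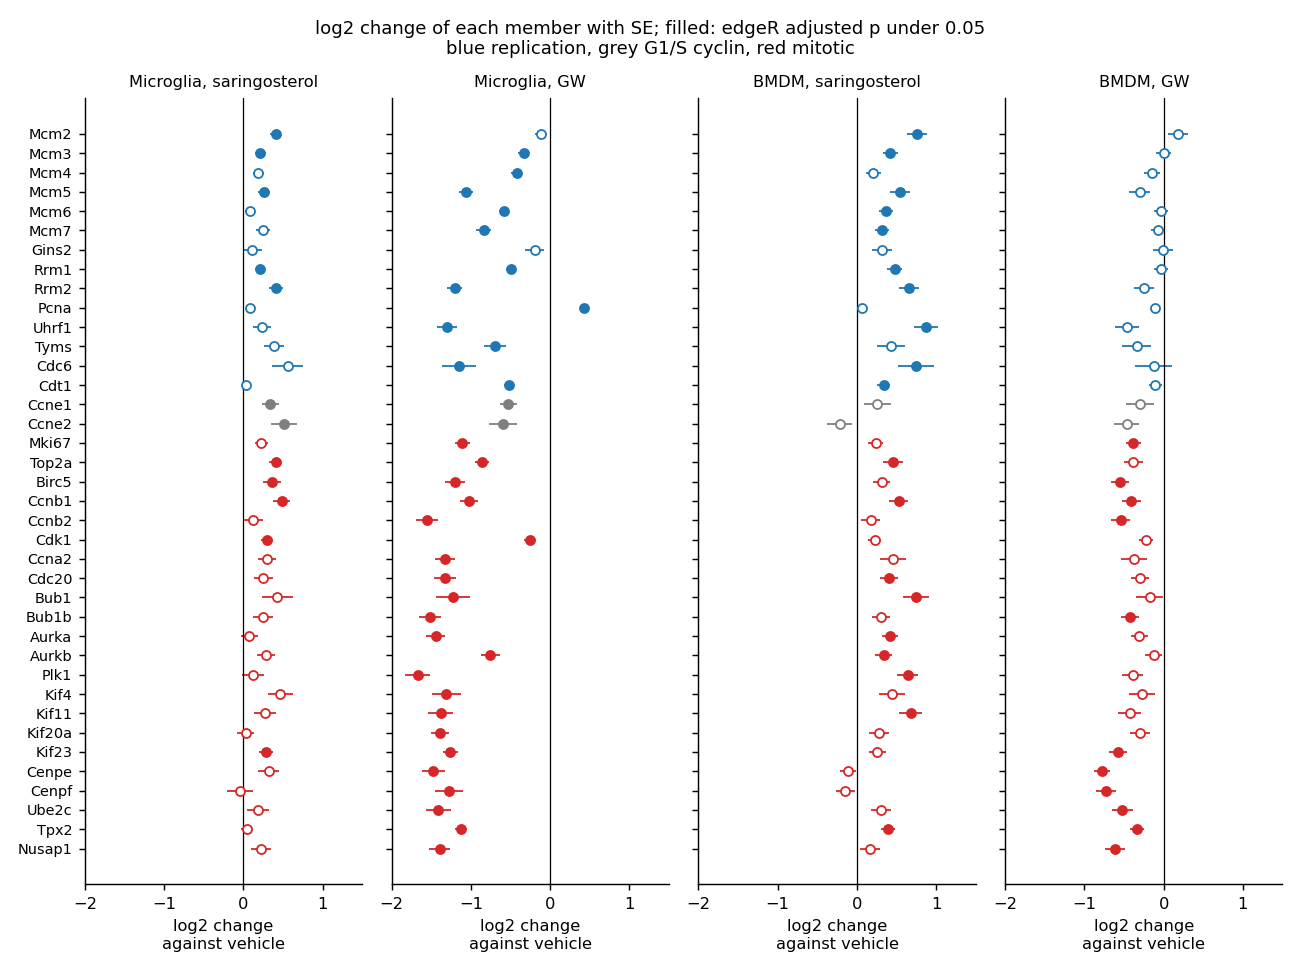
log2 change against vehicle with its SE (bars) for each member in microglia and BMDM given saringosterol or GW; filled points have an edgeR adjusted p under 0.05, blue marks replication genes, grey G1/S cyclins and red mitotic genes. In microglia with GW all red points lie between -1.67 and -0.25 and Pcna alone lies to the right of 0 at 0.43, while in BMDM with GW the blue points lie between -0.46 and 0.18.

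Saringosterol raised part of the set in microglia. Of 38 members 12 rose and 0 fell, where 4.19% of all genes tested rose and 6.66% fell. They were 5 replication genes (Mcm2, Mcm3, Mcm5, Rrm1 and Rrm2), both E-type cyclins and 5 mitotic genes (Top2a, Birc5, Ccnb1, Cdk1 and Kif23). The estimate was above 0 for 37 of 38 members, with a median log2 change of 0.25, and Cenpf was the exception at -0.05 ± 0.16 (adjusted p = 0.92). At an unadjusted p under 0.05, 24 members were higher and 0 lower. The share of all genes at that threshold is not given, here or for later counts at an unadjusted p. Those counts therefore cannot be set against all genes.

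Changes with saringosterol in microglia were small. Ccne2 stood at 6.24, 5.39 and 3.99 CPM with vehicle and at 6.72, 7.44 and 8.19 CPM with saringosterol (log2 change 0.51 ± 0.17, adjusted p = 0.043). Ccnb1, which encodes cyclin B1, stood at 9.72, 10.2 and 11.3 CPM with vehicle and at 15.5, 14.1 and 14.1 CPM with saringosterol (0.49 ± 0.11, adjusted p = 0.0022). Rrm2 stood at 18.8, 17 and 17.9 CPM with vehicle and at 25.7, 23 and 23 CPM with saringosterol (0.42 ± 0.09, adjusted p = 0.0012). In each of the 3 genes the lowest saringosterol library was above the highest vehicle library. Top2a, the topoisomerase that untangles chromosomes, rose from 23.7, 21.6 and 22.7 CPM to 28.8, 28.6 and 32.9 CPM (0.41 ± 0.08). Mcm2, which GW did not change detectably, rose from 24.0, 27.4 and 26.3 CPM to 36.0, 33.2 and 33.7 CPM (0.41 ± 0.07, adjusted p = 0.00013). Pcna stood at 148, 143 and 143 CPM with saringosterol and did not pass the test (0.08 ± 0.04, adjusted p = 0.29).

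The number of calls depended on single libraries. It was 7 without vehicle replicate 1, vehicle replicate 2, saringosterol replicate 1 or saringosterol replicate 3, and 2 (Mcm2 and Cdk1) in 1 fit of all 27 libraries, which also tested more genes (18979 in place of 16065) and was scaled over all cell types. With 1 library left out at a time, Mcm2, Rrm2, Top2a and Ccnb1 kept their call in each fit, and each of the other 8 lost it in at least 1.

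Against GW, saringosterol-treated microglia were higher in 36 members and lower in Pcna, where 12.5% of all genes were higher and 12.9% lower; this comparison uses the same libraries as the 2 above. The largest differences were in Plk1, Cenpe and Kif4. Plk1 was at 8.27, 9.12 and 8.30 CPM with saringosterol and 2.71, 1.83 and 2.82 CPM with GW (1.80 ± 0.15). Cenpe, a kinetochore motor, was at 13.4, 10.6 and 9.48 CPM with saringosterol and 3.02, 2.75 and 3.88 CPM with GW (1.79 ± 0.15). Kif4, a chromosome-bound kinesin, was at 5.32, 5.69 and 6.24 against 1.91, 1.39 and 1.73 CPM (1.77 ± 0.18). Gins2 was the member that did not pass, at 0.31 ± 0.12 (adjusted p = 0.068, edgeR).

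**Figure D3:**
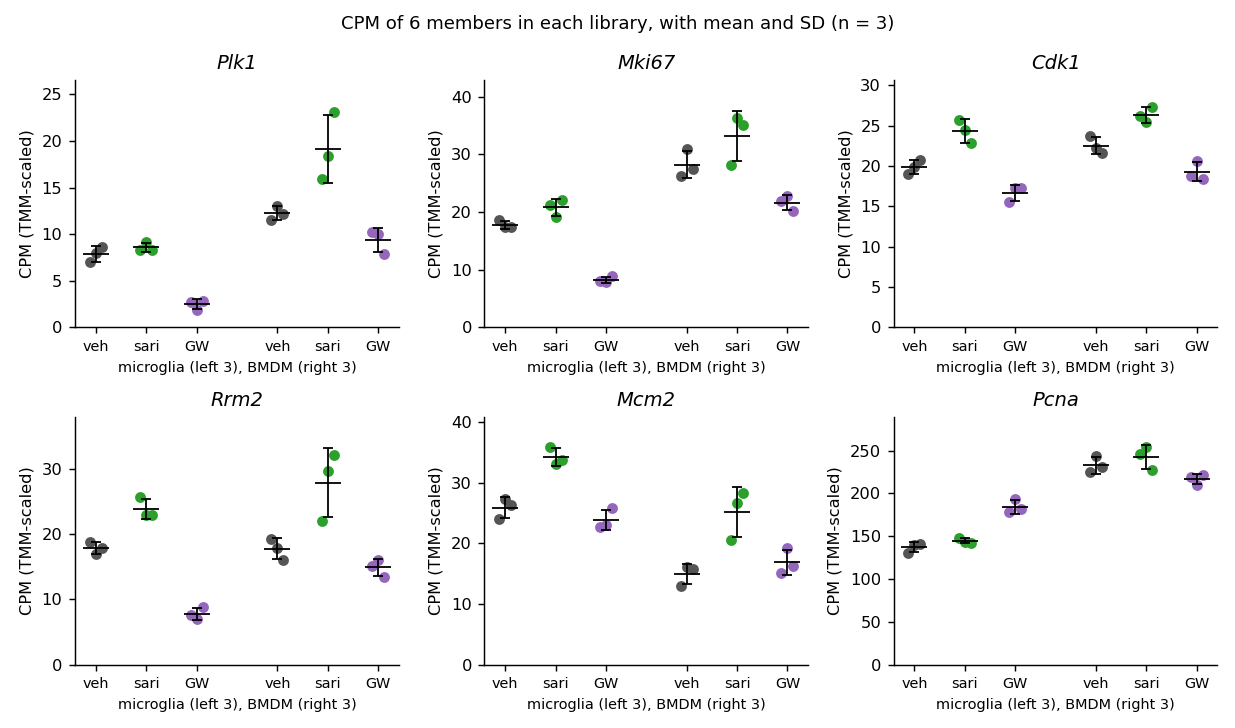
CPM of Plk1, Mki67, Cdk1, Rrm2, Mcm2 and Pcna in each microglia and BMDM library given vehicle (veh), saringosterol (sari) or GW, with mean and SD (n = 3). The GW libraries of microglia are the lowest for Plk1, Mki67, Cdk1 and Rrm2, and the highest of the microglia for Pcna at 178 to 194 CPM.

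Sums of marker lists named for other cells moved with the compounds in the microglia libraries. Astrocyte markers, 7 genes, summed to 39.3 to 41.2 CPM with vehicle, 45.6 to 51.0 CPM with GW and 26.3 to 31.0 CPM with saringosterol. Oligodendrocyte lineage markers, also 7 genes, summed to 80.1 to 85.8, 91.9 to 92.3 and 69.9 to 75.6 CPM in the same order. Macrophage markers summed to 33742 to 35529, 37752 to 38513 and 34309 to 34897 CPM, and Kupffer cell markers, 5 genes, to 287 to 299, 195 to 209.6 and 341 to 378 CPM. By gene, 3 of 7 macrophage markers rose and 4 fell with GW (median log2 change -0.25), and 0 rose and 4 fell with saringosterol. Of 3 Kupffer cell markers tested, 2 rose and 1 fell with GW (median 1.57), and all 3 rose with saringosterol. With GW, 1 of 6 tested astrocyte markers and 3 of 7 oligodendrocyte markers rose and none of either list fell. With saringosterol 1 and 3 fell. Of all genes tested in microglia, 13.4% rose and 15.2% fell with GW, and 4.19% rose and 6.66% fell with saringosterol. The 1 of 6 astrocyte markers that rose with GW is a share near that of all genes. All astrocyte and oligodendrocyte markers had more than 3 counts per group, and the part of these lists in the cell cycle results was not tested.

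In BMDM, saringosterol raised 19 of 38 members and lowered 0, where 5.53% of all 15416 genes tested rose and 5.12% fell. Of the 14 replication genes 10 rose (Mcm2, Mcm3, Mcm5, Mcm6, Mcm7, Rrm1, Rrm2, Uhrf1, Cdc6 and Cdt1), with a class median of 0.43. Of the 22 mitotic genes 9 rose (Top2a, Ccnb1, Cdc20, Bub1, Aurka, Aurkb, Plk1, Kif11 and Tpx2), with a class median of 0.33. At an unadjusted p under 0.05, 12 of the 14 and 18 of the 22 were higher, and a difference between the classes was not tested. Neither E-type cyclin passed the test, at 0.26 ± 0.17 for Ccne1 and -0.22 ± 0.16 for Ccne2.

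Uhrf1 had the largest change in BMDM with saringosterol. It stood at 8.07, 6.96 and 8.17 CPM with vehicle and at 10.9, 13.9 and 17.8 CPM with saringosterol (log2 change 0.88 ± 0.15, adjusted p = 0.00091). Mcm2 stood at 13, 16.1 and 15.7 CPM with vehicle and at 20.5, 26.7 and 28.3 CPM with saringosterol (0.76 ± 0.13, adjusted p = 0.00099). Cdc6, which loads the helicase, stood at 2.04, 3.36 and 2.85 against 3.78, 4.50 and 5.47 CPM (0.74 ± 0.23, adjusted p = 0.043), and the checkpoint kinase Bub1 at 4.78, 4.39 and 4.95 against 6.51, 7.17 and 9.90 CPM (0.74 ± 0.16, adjusted p = 0.0063). In these 4 genes no saringosterol library was as low as a vehicle library. Mcm5 rose from 18.4, 21.2 and 21.5 CPM to 22.9, 31.5 and 34.4 CPM (0.54 ± 0.13), and Ccnb1 from 16.6, 14.7 and 18.3 CPM to 21.1, 23.2 and 27.4 CPM (0.53 ± 0.12). Pcna stood at 224.6, 243.4 and 230.4 CPM with vehicle and at 246, 254.8 and 227.5 CPM with saringosterol, which overlap (0.06 ± 0.06, adjusted p = 0.56).

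The 3 saringosterol libraries of BMDM differed from each other along the whole set. Replicate 1 was the lowest of its group in 33 of 38 members and replicate 3 the highest in 31. Without replicate 1 the number of members that rose was 25, and without vehicle replicate 1 or vehicle replicate 2 it was 11. The Aurkb call was lost in 8 of the 9 fits that left out 1 library, with limma-voom and in the fit of all 27 libraries, and the Cdc6 call in 6 of the 9 and in the fit of all 27. Mcm2, Rrm1, Rrm2, Uhrf1, Bub1, Plk1, Kif11 and Tpx2 kept their call in all 9. The Bub1 call was lost in the fit of all 27 libraries. Macrophage markers summed to 20172 to 21726 CPM with saringosterol against 26162 to 27857 CPM with vehicle (3 of 7 fell). Kupffer cell markers summed to 299.6 to 417 CPM against 115 to 120.3 CPM (1 of 4 tested rose), and endothelial markers to 54.3 to 62.8 CPM against 32.6 to 35.1 CPM (2 of 4 tested rose). Of all genes tested 5.53% rose and 5.12% fell. The part of these lists in the result was not tested.

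GW lowered part of the mitotic class in BMDM. Of 38 members 11 fell, all of them mitotic genes, and 0 rose, where 4.76% of all genes tested fell and 5.66% rose. The 11 were Cenpe, Cenpf, Nusap1, Kif23, Birc5, Ccnb2, Ube2c, Bub1b, Ccnb1, Mki67 and Tpx2. The median change of the mitotic class was -0.39, and the estimate was below 0 for all 22. Among the 14 replication genes 0 were called by edgeR and 0 by DESeq2, and 2 were lower at an unadjusted p under 0.05. Their median was -0.10 and the estimate was below 0 for 12 of them, as it was for both E-type cyclins. Uhrf1 was called as lower without saringosterol replicate 1, and a difference between the classes was not tested.

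Cenpe stood at 18.5, 16.4 and 17.2 CPM with vehicle and at 9.94, 10.3 and 10.2 CPM with GW (log2 change -0.78 ± 0.10, adjusted p = 4.2e-05). Cenpf stood at 15, 10.9 and 12.5 CPM with vehicle and at 7.63, 7.90 and 7.65 CPM with GW (-0.73 ± 0.12, adjusted p = 0.0006). Nusap1, a microtubule-binding protein of the spindle, stood at 15.4, 16.6 and 14.5 CPM with vehicle and at 10.0, 11.1 and 9.21 CPM with GW (-0.62 ± 0.13, adjusted p = 0.003). The groups of all 3 genes did not overlap, and the GW libraries of Cenpe and Cenpf lay within a narrow range. Cdk1, at 23.7, 22.2 and 21.6 CPM with vehicle and 18.8, 20.6 and 18.4 CPM with GW, did not pass (-0.22 ± 0.08, adjusted p = 0.093). Mcm2 stood at 15.1, 19.2 and 16.3 CPM with GW (0.18 ± 0.13, adjusted p = 0.42), and Pcna at 218.9, 210.5 and 221.1 CPM (-0.10 ± 0.06, adjusted p = 0.28).

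The count in BMDM with GW also depended on single libraries. It was 7 without vehicle replicate 2, 6 without GW replicate 3 and 17 without saringosterol replicate 3, and 18 with no filter on low counts. With 1 library left out at a time, the calls of Mki67, Ccnb1, Bub1b, Ube2c and Tpx2 were each lost in at least 1 fit, and those of the other 6 were kept. GW replicate 3 was the lowest of its group in 26 of 38 members. Neutrophil markers, 5 genes, summed to 39.4 to 51.6 CPM with vehicle and 26.3 to 27.6 CPM with GW (3 of 4 tested fell). Kupffer cell markers summed to 439 to 463 CPM with GW (2 of 4 tested rose) and endothelial markers to 90.5 to 91.8 CPM (1 of 4 tested rose). Of all genes tested 4.76% fell and 5.66% rose. The part of these lists in the result was not tested.

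Between the compounds, 35 members were higher with saringosterol than with GW in BMDM and 0 lower, where 4.57% of all genes were higher and 4.75% lower. The exceptions were Gins2, Pcna and Ccne2. Uhrf1 was at 10.9, 13.9 and 17.8 CPM with saringosterol and 5.21, 5.93 and 5.69 CPM with GW (1.34 ± 0.15). Kif11, a motor that separates the spindle poles, was at 14.7, 17.7 and 21.5 against 8.26, 8.94 and 7.78 CPM (1.11 ± 0.15), and Plk1 at 15.9, 18.4 and 23.1 against 10.2, 9.98 and 7.86 CPM (1.04 ± 0.14). Each of these pairs was fully separated.

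Replication and mitotic genes were also summed by class in each library, on plain library totals and with no test. With vehicle, replication genes of microglia summed to 478 ± 11.5 CPM, those of BMDM to 520.1 ± 16.3 CPM and those of hepatocytes to 439 ± 11.6 CPM. Mitotic genes summed to 258 ± 3.61, 385 ± 8.91 and 28 ± 2.85 CPM in the same order. Mcm6 was the largest part of the hepatocyte replication sum, and 10 of the 14 replication genes were higher in each macrophage type than in hepatocytes. The order of the replication sums depended on the scale and the genes. As TPM they were 397 ± 10.0 in microglia, 454 ± 17.8 in BMDM and 278 ± 9.93 in hepatocytes, and over the Mcm, Gins and Rrm genes alone they were 269.9 ± 7.94, 246 ± 9.56 and 379 ± 9.68 CPM. With GW the microglia sums were 399 ± 9.73 CPM for replication and 113.5 ± 6.05 CPM for mitosis, and with saringosterol 540.1 ± 4.11 and 307.4 ± 10.5 CPM. In BMDM the sums were 478 ± 8.16 and 283 ± 28.9 CPM with GW and 632 ± 48.8 and 484 ± 54.9 CPM with saringosterol.

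The log2 ratio of the replication to the mitotic sum was 0.89 ± 0.04 (SD, n = 3) with vehicle, 1.82 ± 0.05 with GW and 0.81 ± 0.04 with saringosterol in microglia. The GW libraries stood apart from the others by many times that spread. In BMDM it was 0.43 ± 0.02 with vehicle, 0.76 ± 0.14 with GW and 0.39 ± 0.07 with saringosterol. In hepatocytes it was 3.98 ± 0.14, 3.85 ± 0.04 and 4.01 ± 0.12. Pcna is the largest part of the replication sum in microglia and rose with GW; over the 9 Mcm, Gins and Rrm genes alone, which summed to 269.9 ± 7.94 CPM with vehicle and 179 ± 10.7 CPM with GW, the ratio moved by 0.59 in place of 0.93. With saringosterol in BMDM the ratio moved by -0.04 for all 14 replication genes and by 0.10 for those 9, so its direction is not settled.

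**Figure D4:**
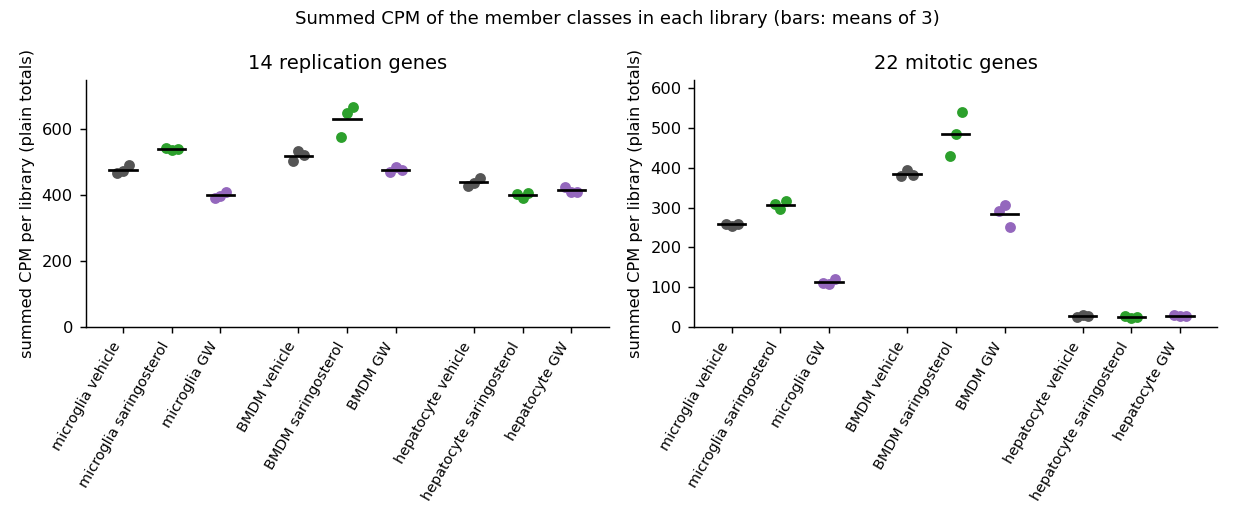
Summed CPM of the 14 replication genes (left) and the 22 mitotic genes (right) in each of the 27 libraries, with bars at the mean of 3. The mean mitotic sum with GW in microglia is 113.5 CPM against 258 CPM with vehicle, a larger drop than in the replication sum. The hepatocyte groups have mean replication sums of 401 to 439 CPM beside mean mitotic sums of 25.0 to 28.8 CPM.

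In hepatocytes 33 members passed the filter on low counts, which Mki67, Ccnb2, Ccna2, Bub1 and Cenpf did not. Saringosterol changed 1 of the 33, where 1.02% of all 16098 genes tested fell and 0.888% rose. Mcm6 stood at 218, 223 and 228 CPM with vehicle and at 204, 187 and 201 CPM with saringosterol, which do not overlap (log2 change -0.17 ± 0.05, adjusted p = 0.04, edgeR). The Mcm6 call was lost without vehicle replicate 1 or 3, saringosterol replicate 2 or 3, or GW replicate 1 or 3.

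With GW, Mcm6 was at 198.5, 198 and 197 CPM (-0.17 ± 0.05, adjusted p = 0.058), and edgeR called 0 members, where 0.385% of all genes fell and 0.721% rose. At an unadjusted p under 0.05, 3 members were higher and 1 lower with GW, and DESeq2 called 1 member. Between saringosterol and GW 0 members were called by edgeR or DESeq2, where 0.714% of all genes were higher and 1.25% lower, and 7 members were lower with saringosterol at an unadjusted p under 0.05. Aurka, at 4.94, 5.50 and 4.44 CPM with vehicle, and Kif20a, at 5.91, 7.14 and 5.58 CPM, had the highest CPM of the mitotic class there. Kif20a shares 1271 exon bases with Cdc23 on the other strand. Changes in mitotic genes with a few counts per library were not detectable at this depth.

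Differences between cell types in the response were tested as interaction terms over all 27 libraries. For GW, 24 members responded lower in microglia than in BMDM and 1, Pcna, higher, where 5.28% of all genes were lower and 4.43% higher. The 24 were 17 mitotic genes and 7 replication genes (Mcm5, Mcm6, Mcm7, Rrm1, Rrm2, Uhrf1 and Cdt1). The largest interaction was in Plk1, at -1.29 ± 0.28, which in BMDM stood at 11.5, 13 and 12.2 CPM with vehicle and 10.2, 9.98 and 7.86 CPM with GW. Aurka followed at -1.15 ± 0.19, with 12.7, 11.7 and 12.9 against 10.9, 9.68 and 9.62 CPM in BMDM, and Kif20a at -1.10 ± 0.18. Pcna differed by 0.53 ± 0.08 (adjusted p = 1.8e-05). Cdk1 and Mcm2 did not pass, at -0.04 ± 0.12 and -0.30 ± 0.15.

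Against hepatocytes the GW response of microglia was lower in 20 members and higher in Pcna, where 3.64% of all genes were lower and 5.05% higher. Ube2c, the ubiquitin-conjugating enzyme of the anaphase-promoting complex, had 7, 5 and 12 counts with vehicle and 34, 10 and 14 counts with GW in hepatocytes, and 8.11, 9.59 and 7.53 CPM against 3.68, 2.26 and 3.51 CPM in microglia. Its interaction of -2.72 ± 0.47, and those of Plk1 (-2.58 ± 0.46) and Cenpe (-2.16 ± 0.30), rest on few hepatocyte counts. For BMDM against hepatocytes 2 members passed as lower in BMDM, Ube2c and Cenpe, where 1.6% of all genes were lower and 3.14% higher. That count was 1 without hepatocyte vehicle replicate 1 or hepatocyte GW replicate 1, and 4 without hepatocyte GW replicate 3.

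For saringosterol, edgeR called 0 members as differing between microglia and BMDM, where 0.769% of all genes were higher and 1.24% lower. At an unadjusted p under 0.05, 1 member was higher and 6 were lower in microglia; DESeq2 was not run for the interactions. Without BMDM saringosterol replicate 1, the library low across the set, 4 members passed as lower in microglia (Mcm2, Mcm6, Rrm1 and Uhrf1). Against hepatocytes, 4 members responded higher in microglia (Mcm2, Mcm3, Pcna and Kif4, where 0.906% of all genes were higher and 0.274% lower) and 17 in BMDM (where 6.98% were higher and 3.13% lower). Kif4 had the largest interaction in both, at 2.22 ± 0.49 and 2.21 ± 0.49, with 16, 22 and 16 counts with vehicle and 1, 6 and 8 counts with saringosterol in hepatocytes. Of the other called members in BMDM against hepatocytes, Top2a had 1.19 ± 0.35 and Uhrf1 1.16 ± 0.23. The 4 called in microglia were 1 without microglia vehicle replicate 1, microglia saringosterol replicate 1 or hepatocyte vehicle replicate 3, and 2 without microglia vehicle replicate 2, microglia saringosterol replicate 2 or hepatocyte saringosterol replicate 2. The 17 called in BMDM were 11 without BMDM saringosterol replicate 3.

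Other genes of the pathway were read from 5 lists that hold no member. In microglia with GW, where 15.2% of all genes fell and 13.4% rose, other replication genes gave 13 of 20 lower and 1 higher, and other mitotic genes 17 of 18 lower and 0 higher. Kif2c, a microtubule-depolymerising kinesin, fell by 1.79 ± 0.16, Cdc25c, the phosphatase that activates Cdk1, by 1.73 ± 0.36 and Ndc80, a kinetochore protein, by 1.56 ± 0.15 on the log2 scale. Mcm10 and Pole, an origin factor and a replicative polymerase, fell by 1.47 ± 0.14 and 1.43 ± 0.28, whereas Rfc5, a subunit of the loader that places Pcna on DNA, rose by 0.23 ± 0.07. Of 16 E2F, MuvB and FOXM1 factors 6 fell and 2 rose. The repressor-type E2f7 and E2f8 fell by 1.86 ± 0.33 and 1.46 ± 0.20, Mybl2, which encodes B-Myb, by 1.21 ± 0.27 and Foxm1 by 0.90 ± 0.14, while E2f1 rose by 0.18 ± 0.06.

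Regulators of cell cycle entry did not share a direction in microglia with GW, with 8 of 16 lower and 3 higher. The inhibitor gene Cdkn1c fell by 2.45 ± 0.15, from 9.08 ± 0.73 to 1.67 ± 0.26 CPM (SD, n = 3). Cdkn1a, which encodes the inhibitor p21, fell by 0.42 ± 0.04, from 376.5 ± 18.4 to 280.8 ± 2.83 CPM. Ccnd1 stood at 124 ± 6.47 and 118 ± 1.70 CPM and did not pass (adjusted p = 0.24, edgeR). Cdkn1b did not pass either (-0.12 ± 0.17). Of 9 p53 targets 3 rose and 3 fell, among them Sesn1 at 0.97 ± 0.04 and Mdm2 at -0.62 ± 0.04.

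With saringosterol in microglia, where 4.19% of all genes rose and 6.66% fell, 3 of 18 other mitotic genes (Hmmr, Cenpa and Anln) and 0 of 20 other replication genes rose by edgeR; 4 of the 20 were higher and 0 lower at an unadjusted p under 0.05. Of 16 E2F, MuvB and FOXM1 factors 1, Lin9, rose (0.37 ± 0.11) and 0 fell, a share near that of all genes, and E2f1, Foxm1 and Mybl2 stood at 0.08 ± 0.06, 0.30 ± 0.13 and 0.13 ± 0.24. Among regulators of entry Myc and Cdk4 rose, by 0.39 ± 0.05 and 0.19 ± 0.04, and Ccnd2, Ccnd3 and Cdkn1a fell, Cdkn1a by 0.33 ± 0.04. Of 9 p53 targets 1, Gadd45a, rose (0.53 ± 0.09) and 3 fell, among them Bbc3 (-0.53 ± 0.07).

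In BMDM with saringosterol, where 5.53% of all genes rose and 5.12% fell, 6 of 20 other replication genes and 6 of 18 other mitotic genes rose and 0 fell. Pole rose by 1.01 ± 0.23 and Tk1, a thymidine kinase, by 0.76 ± 0.15. E2f2, Mybl2 and Foxm1 rose by 1.11 ± 0.27, 0.86 ± 0.27 and 0.66 ± 0.16, and E2f1 did not pass (0.11 ± 0.06). Of 15 tested regulators of entry 2 rose, Cdkn1c and Cdk4, and 3 fell, Cdkn1b by 0.72 ± 0.14, Ccnd3 by 0.46 ± 0.09 and Cdkn1a by 0.38 ± 0.06. Cdkn1b, which encodes p27, was at 9.54 ± 1.09 CPM with vehicle and 5.79 ± 0.68 CPM with saringosterol.

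In BMDM with GW, where 4.76% of all genes fell and 5.66% rose, 6 of 15 tested regulators of entry fell and 1, Rbl2, rose. Of the called regulators Ccnd1 changed most, falling by 0.85 ± 0.10 from 21.9 ± 2.40 to 12.1 ± 0.93 CPM. Ccnd2, at under 1 CPM, had a log2 change of -1.07 ± 0.41 and did not pass (adjusted p = 0.11). Cdkn1a fell by 0.28 ± 0.06. Of 16 E2F, MuvB and FOXM1 factors edgeR called 0 and 0 passed at an unadjusted p under 0.05; Foxm1 was at -0.26 ± 0.16, Mybl2 at -0.03 ± 0.28 and E2f1 at 0.11 ± 0.06. Hmmr and Prc1 fell, 2 of 18 other mitotic genes, by 0.63 ± 0.13 and 0.46 ± 0.12, and Pola1 alone of 20 other replication genes rose, by 0.42 ± 0.13. In hepatocytes edgeR called 0 genes of the 5 lists with any comparison of treatments. Of all genes tested there, 0.385% to 1.25% were called per comparison and direction, and 0 is near that share.

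Of the 38 members, 11 share exon bases with another gene: Ccna2, Ccne2, Cdc20, Gins2, Kif20a, Kif4, Mcm7, Nusap1, Plk1, Top2a and Ube2c. The strand setting of the counting is not given in the sources used here, so the values of these genes can include reads of their neighbours and are uncertain. Gins2 has the largest overlap, 2758 bases with Gse1 on the other strand.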

How the data were processed

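RNA of 27 libraries was made into cDNA with an oligo-dT SMARTer kit, per the labels. Reads were aligned with STAR 2.5.1a to GRCm38 and counted with featureCounts 1.4.6-p5, per the submitters' processing notes. The strand setting is not given in the sources used here. The deposited tables of the authors hold raw counts by gene and TPM. Tests used the deposited counts, 168 identifiers standing on several identical lines were used once, and TPM served only to compare levels between genes. Comparisons within a cell type used a fit of its 9 libraries in edgeR 4.0.16 (R 4.3.3; TMM, filterByExpr, robust quasi-likelihood); interactions and vehicle comparisons used 1 fit of 27 libraries. Calls had a Benjamini-Hochberg adjusted p under 0.05 over all genes tested. Alternatives were RLE factors, DESeq2 1.42.0, limma-voom (limma 3.58.1), no filter, 1 fit of all libraries, a replicate block and leaving out each library. Fits were tested on simulated data. The members and lists were chosen with earlier results of these data known. Named with values in every library were listed members on which a result turns, the 3 largest called changes per comparison and called members against their class; of other pathway genes, the largest called changes and 6 listed regulators.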

Additional observations from a re-analysis of the deposited data

Results flagged for a closer look

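Members were called as differing between cell types in their response in 5 of the 6 interaction tests, all with edgeR over 27 libraries at an adjusted p under 0.05. For GW, 25 members differed between microglia and BMDM (24 lower in microglia, Pcna higher; 5.28% of all genes were lower and 4.43% higher), 21 between microglia and hepatocytes (20 lower, Pcna higher; 3.64% and 5.05% of all genes) and 2 between BMDM and hepatocytes (Ube2c and Cenpe, both lower in BMDM; 1.6% and 3.14% of all genes). The 2 members are a share near that of all genes. For saringosterol, 17 members responded higher in BMDM than in hepatocytes (6.98% of all genes) and 4 higher in microglia than in hepatocytes (0.906% of all genes); the 4 were 1 without microglia vehicle replicate 1, microglia saringosterol replicate 1 or hepatocyte vehicle replicate 3. Those against hepatocytes compare cells in different media, and medium and cell type cannot be told apart there.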

How the results depend on the processing

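The number of members called was compared between settings. Fitting all 27 libraries at once, which changed the genes tested, the scaling and the dispersion together, gave 2 members in microglia with saringosterol in place of 12, 0 in hepatocytes with saringosterol in place of 1, and 1 between saringosterol and GW in hepatocytes in place of 0. With no filter on low counts, 18 members fell in BMDM with GW in place of 11, and 1 member differed in the saringosterol response of microglia and BMDM in place of 0. DESeq2 called 1 member in hepatocytes with GW. Leaving out 1 library at a time gave 7 to 14 members in microglia with saringosterol, 11 to 25 in BMDM with saringosterol, 6 to 17 in BMDM with GW, 0 to 1 in hepatocytes with either compound, 35 to 36 in microglia with GW and 29 to 35 between the compounds in BMDM. For the interactions it gave 0 to 4 (saringosterol, microglia against BMDM), 1 to 5 (microglia against hepatocytes), 11 to 20 (BMDM against hepatocytes) and 1 to 4 (GW, BMDM against hepatocytes). The cause of these shifts was not tested.

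Pairing by replicate number was described by correlations of library deviations from the group means, with no test. Between libraries of equal number they ran from -0.148 to 0.069 in microglia, -0.072 to 0.039 in BMDM and -0.025 to 0.111 in hepatocytes. Between libraries of unlike number they ran from -0.072 to 0.116, -0.132 to 0.109 and -0.08 to 0.042 in the same order. Fitting the replicate number as a block gave 1 member in hepatocytes with GW in place of 0. The block also took away the calls of Mcm3, Ccne1 and Birc5 in microglia with saringosterol, Aurkb in BMDM with saringosterol, Ccnb1 in BMDM with GW and Ccne1 between the compounds in BMDM. Counting all genes, it called 782, 286 and 544 in hepatocytes in place of 307 (saringosterol), 178 (GW) and 316 (saringosterol against GW).

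Counts over all genes also moved in other settings. With all libraries in 1 fit they were 690 in microglia with saringosterol (1743 in the separate fit), 2471 and 2442 in BMDM with saringosterol and GW (1643 and 1606), and 57, 88 and 146 in the 3 hepatocyte comparisons. In hepatocytes with saringosterol DESeq2 called 522 and no filter 491. For the saringosterol response of microglia against BMDM no filter gave 700 in place of 382, and the share that was higher was 28.1% with RLE size factors in place of 38.2%. Leaving out 1 library gave 846 to 1754 in BMDM with saringosterol, 896 to 2500 in BMDM with GW, 887 to 1475 between the compounds in BMDM, 86 to 803 in hepatocytes with saringosterol, 188 to 416 between the compounds in hepatocytes, and, for the saringosterol responses, 161 to 681 (microglia against BMDM), 131 to 269 (microglia against hepatocytes) and 1220 to 2381 (BMDM against hepatocytes).

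The change in the log2 ratio of replication to mitotic sums was taken again over the Mcm, Gins and Rrm genes alone. In microglia it was -0.03 with saringosterol in place of -0.08, 0.59 with GW in place of 0.93 and -0.61 between them in place of -1.0; in BMDM it was 0.10 with saringosterol in place of -0.04 and -0.26 between the compounds in place of -0.37. From TPM it was 1.13 with GW and -1.20 between the compounds in microglia, and -0.12 with saringosterol in BMDM.

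Of 9315 values of single members under the alternatives, 8908 kept their side of the threshold, 300 lost their call and 107 gained one. In 216 of the 8908, which were uncalled in both fits, the sign changed. Low counts limit the mitotic genes of hepatocytes.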
